A study of Mus musculus with 15 samples.

Results

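The transcripts described here belong to 9 genes of MHC class I antigen presentation: B2m, H2-K1, H2-D1, Tap1, Tap2, Tapbp, Psmb8, Psmb9 and Nlrc5. They were chosen by name, as known parts of the pathway, from the 38315 genes of a table of normalized read counts, and each name matched 1 gene. The samples were 7 bone marrows with acute myeloid leukaemia (AML) from mice of the genotype NUP98-NSD1/FLT3-ITD, 4 whole marrows of wild-type mice and 4 lineage-negative marrows of wild-type mice. Lineage-negative marrow is depleted of cells that carry surface antigens of mature blood cells, and the AML marrows were not described as depleted in this way. The NUP98-NSD1 fusion links a nuclear pore protein with a histone methyltransferase. The FLT3-ITD allele carries a tandem repeat inside a cytokine receptor kinase. The promoters that drive the transgenes, the strain, the age and the share of leukaemic cells are not given in the sources used here, nor is it stated whether each library came from a separate animal, so p-values measure the spread between these samples. The comparisons ask how the leukaemic marrow differs from normal marrow as a whole and from its immature fraction.

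MHC class I molecules show peptides from inside the cell to CD8 T cells. Proteasomes cut cytosolic proteins into peptides, the TAP1-TAP2 transporter carries the peptides into the endoplasmic reticulum, and tapasin bridges the transporter to empty heavy chains paired with beta-2-microglobulin. Interferon gamma, in part through IRF1, and the transactivator NLRC5 are known to raise the transcription of these genes together, and in haematopoietic tissue nearly all nucleated cells express them.

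All but B2m and Nlrc5 lie in the MHC region of chromosome 17. In GENCODE vM21 (build GRCm38) the protein-coding gene B2m spans chr2:122147686-122153083 and Nlrc5 spans chr8:94434356-94527272. The heavy-chain genes are H2-K1 at chr17:33996017-34000347 and H2-D1 at chr17:35262730-35267499. Psmb9 (chr17:34181987-34187764), Tap1 (chr17:34187553-34197225), Psmb8 (chr17:34197721-34201454) and Tap2 (chr17:34203527-34216321) follow each other, and Tapbp spans chr17:33915899-33929292. Each span covers all exons and introns of the gene.

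Promoter sequences are shown because the coordinate transcription of these genes is known to run through shared elements: a kappa B site, an interferon response element bound by IRF proteins, and a module whose X box binds RFX and CREB proteins and whose Y box, an inverted CCAAT, binds NF-Y. RefSeq (GRCm38.p6) gave a promoter for 7 of the 9 genes, the exceptions being Tap2 and Nlrc5. The 250 bases before the transcription start are printed 5′ to 3′ on the strand of the gene for B2m (chr2:122147437-122147686, plus strand) and H2-K1 (chr17:34000348-34000597, minus strand), with capitals for letters that match, on either strand, the IRF core AANNGAAA, the CCAAT box, the core TGACG of a cyclic AMP response element, or the palindromic kappa B site (the first run of capitals in H2-K1).
B2m: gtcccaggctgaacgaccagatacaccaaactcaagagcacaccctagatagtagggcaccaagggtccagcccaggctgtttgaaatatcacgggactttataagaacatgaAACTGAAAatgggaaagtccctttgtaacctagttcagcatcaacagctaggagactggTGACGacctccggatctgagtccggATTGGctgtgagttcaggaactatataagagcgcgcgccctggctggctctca
H2-K1: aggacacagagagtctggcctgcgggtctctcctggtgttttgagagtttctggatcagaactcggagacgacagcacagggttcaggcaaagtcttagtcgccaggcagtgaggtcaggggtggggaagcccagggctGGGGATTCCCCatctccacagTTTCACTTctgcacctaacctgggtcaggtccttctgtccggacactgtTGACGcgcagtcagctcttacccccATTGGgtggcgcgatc

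The stretch from TGACG to the inverted CCAAT box, read as ATTGG, was the same length in the B2m, H2-K1 and H2-D1 promoters, with 20 bases between the capitals, and is aligned here to show it (chr2:122147609-122147638, chr17:34000359-34000388 and chr17:35262993-35263022). GENCODE places the start of H2-D1 upstream of the RefSeq start, so there the H2-D1 letters lie in the first exon.
B2m: TGACGacctccggatctgagtccggATTGG
H2-K1: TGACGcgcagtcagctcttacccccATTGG
H2-D1: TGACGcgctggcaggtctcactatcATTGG

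Both heavy-chain genes also held the palindromic kappa B site followed by an IRF core on the other strand (chr17:34000430-34000458 and chr17:35262923-35262951).
H2-K1: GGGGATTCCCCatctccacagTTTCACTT
H2-D1: GGGGATTCCCCatctcctcagTTTCACTT

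Of 32817 promoter windows of 250 bases, 0.0305% held exactly these letters of the kappa B site, among them those of H2-K1, H2-D1 and H2-Q6. Kappa B sites with other letters were not searched for, so no absence is shown for B2m or the other genes. The cores TGACG and ATTGG with exactly 20 bases between them, a pattern chosen after the sequences had been read, occurred in 0.0548%, among them the windows of B2m, H2-K1, H2-D1 and H2-M3. Single short motifs were common: AANNGAAA occurred in 21.3% of windows and in 3 of 7 of these genes (B2m, H2-K1 and H2-D1), CCAAT in 33.8% and in 6 of 7, and TGACG in 17.7% and in 5 of 7. The CCAAT matches include the ATTGG of the spaced pattern, so the counts overlap. The windows of Tap1 and Psmb9 overlap, as given below, and share their CCAAT match and their TGACG match. Each such match is counted for both genes. The windows of Tapbp (chr17:33919228-33919477), Psmb8 (chr17:34197945-34198194) and Psmb9 (chr17:34187331-34187580) lie inside the GENCODE spans of these genes, as that of H2-D1 does. GENCODE thus places other starts for them, and the windows before those starts were not searched. The RefSeq starts of Tap1 and Psmb9, which point away from each other, lay 226 bases apart, and 225 of the 250 bases before Tap1 also lay before Psmb9. In GENCODE the Psmb9 span reaches past the start of Tap1 on the other strand, so there the 2 spans overlap. These are matches of letters and no binding was measured.

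Library totals of normalized counts ranged from 10221001 to 29658616. The lowest was whole marrow replicate 1, where the other whole marrow libraries had 17865234 to 19285222. The estimated depth, in M reads (M, mega), was 20.3 to 35.1 for AML. It was 11.4 to 17.2 for whole marrow and 20.3 to 28.1 for lineage-negative marrow. The whole marrow libraries stood apart. In them 7.12% to 15.7% of genes were at 0, against 35.7% to 41.0% in lineage-negative and 23.6% to 41.4% in AML marrow, and 1750 olfactory and vomeronasal receptor genes, which marrow is not known to express, averaged 6.31 to 11.9 normalized counts against 0.325 to 3.34 elsewhere. With the deposited scaling, the median of all 18941 genes tested was 0.67 higher (log2) in AML than in whole marrow and 0.02 higher than in lineage-negative marrow. The results of these genes against whole marrow are therefore also given after scaling by the trimmed mean of M values (TMM), which aligns the bulk of genes between libraries and brings the first median to -0.01.

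Summed marker levels of the normal groups matched the labels in direction. The sum over 10 stem and progenitor markers was 16449.9 to 20859 in lineage-negative, 4394 to 9052 in AML and 1494 to 2783 in whole marrow, and the sum over 10 mature neutrophil markers was 974 to 17067, 398386 to 1386558 and 429794 to 1147353. Over 9 erythroid markers whole marrow had 803779.5 to 1982786, AML 397 to 31990.4 and the lineage-negative libraries 5967 to 49224. The sums over 10 monocyte and macrophage markers (57274 to 93488 in AML, 12901 to 28317 in whole and 10550.5 to 17280.2 in lineage-negative marrow) and over 10 dendritic cell markers (10172 to 33283, 3713 to 5994 and 9445 to 13868) were highest in AML, although the lowest AML library for dendritic markers lay inside the lineage-negative range. At most 1 marker of a list was at 0 in any library. Flt3 is in the stem and progenitor list and in the dendritic list. By the rule for calls given below, 4 stem and progenitor markers were higher and 2 lower in AML than in whole marrow (2 and 3 after TMM scaling). Of the monocyte and macrophage markers 6 were higher (2 after TMM scaling), and of the dendritic cell markers 9 (7 after TMM scaling). Of all genes 27.3% were called higher and 11.3% lower, or 4.74% and 16% after TMM scaling. In bulk samples, more cells of a type and more RNA per cell cannot be told apart, and the part of these cell types in the results below was not tested.

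All 9 genes were higher in AML than in whole marrow, and 7 of 9 were higher in AML than in lineage-negative marrow. A gene was called where limma gave a Benjamini-Hochberg adjusted p under 0.05 over all genes tested and a log2 difference of 1 or more in size. Of all genes, 27.3% were called higher in AML than in whole marrow, 4.74% after TMM scaling, by which 5 of the 9 were called (H2-K1, Tap1, Psmb8, Psmb9 and Nlrc5). None of the 9 was called lower, where 11.3% of all genes were, or 16% after TMM scaling. Against lineage-negative marrow 17.7% of all genes were called higher, and 17.6% after TMM scaling, which left the count at 7 of 9. None was lower, beside 12.5% of all genes with either scaling. All members lay far above the value of 3 reads, at most 4.09 normalized counts, in every library. The comparisons with AML share the same 7 AML samples and are given side by side.

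Among the genes of the assembled molecule, B2m, the invariant light chain, had the highest level per kilobase in each group. Its normalized counts in AML ran from 18428 through a median of 27869 to 51944. Whole marrow gave 8917, 16351, 13388 and 13226, and lineage-negative marrow 4926, 16827, 12151 and 14264. Every AML library lay above every normal library, and lineage-negative replicate 1 was low among its group. The log2 difference was 1.26 (SE 0.32, limma adjusted p = 0.00236) against whole marrow and 1.47 (SE 0.32, limma adjusted p = 0.000924) against lineage-negative marrow, or 2.39-fold and 2.76-fold. After TMM scaling the difference from whole marrow was 0.56 (limma adjusted p = 0.153) and the groups overlapped, so this call rests on the scaling.

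H2-K1 and H2-D1 encode the classical heavy chains, which bind the peptide. H2-K1 ran from 18722 through 22375 to 37659.7 in AML. It was 3919, 8738, 7556 and 7295 in whole marrow and 9538, 14091, 12351 and 10041 in lineage-negative marrow, so the 3 groups followed each other without overlap from whole to lineage-negative to AML marrow. After TMM scaling the normal groups overlapped, at 8369.5 to 10685 in whole and 8567 to 12117 in lineage-negative marrow, and AML was still above both. The log2 difference was 1.90 (SE 0.26, limma adjusted p = 7.64e-06) against whole marrow, 1.21 after TMM scaling, and 1.12 (SE 0.26, limma adjusted p = 0.00128) against lineage-negative marrow. H2-D1 ran from 36552 through 43654 to 53971 in AML. In whole marrow it was 9157, 20326, 16623 and 15569.7, and in lineage-negative marrow 13863, 13855, 11496 and 10191. AML was again above both, but here the normal groups overlapped. Its log2 difference was 1.58 (SE 0.23, limma adjusted p = 2.08e-05) against whole marrow and 1.86 (SE 0.23, limma adjusted p = 2.43e-06) against lineage-negative marrow. After TMM scaling the difference from whole marrow was 0.88, under the threshold for a call. H2-K1 shared 9.63% and H2-D1 10.9% of their transcript 50-mers with other H2 genes, so reads may have been divided between paralogs.

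**Figure D1:**
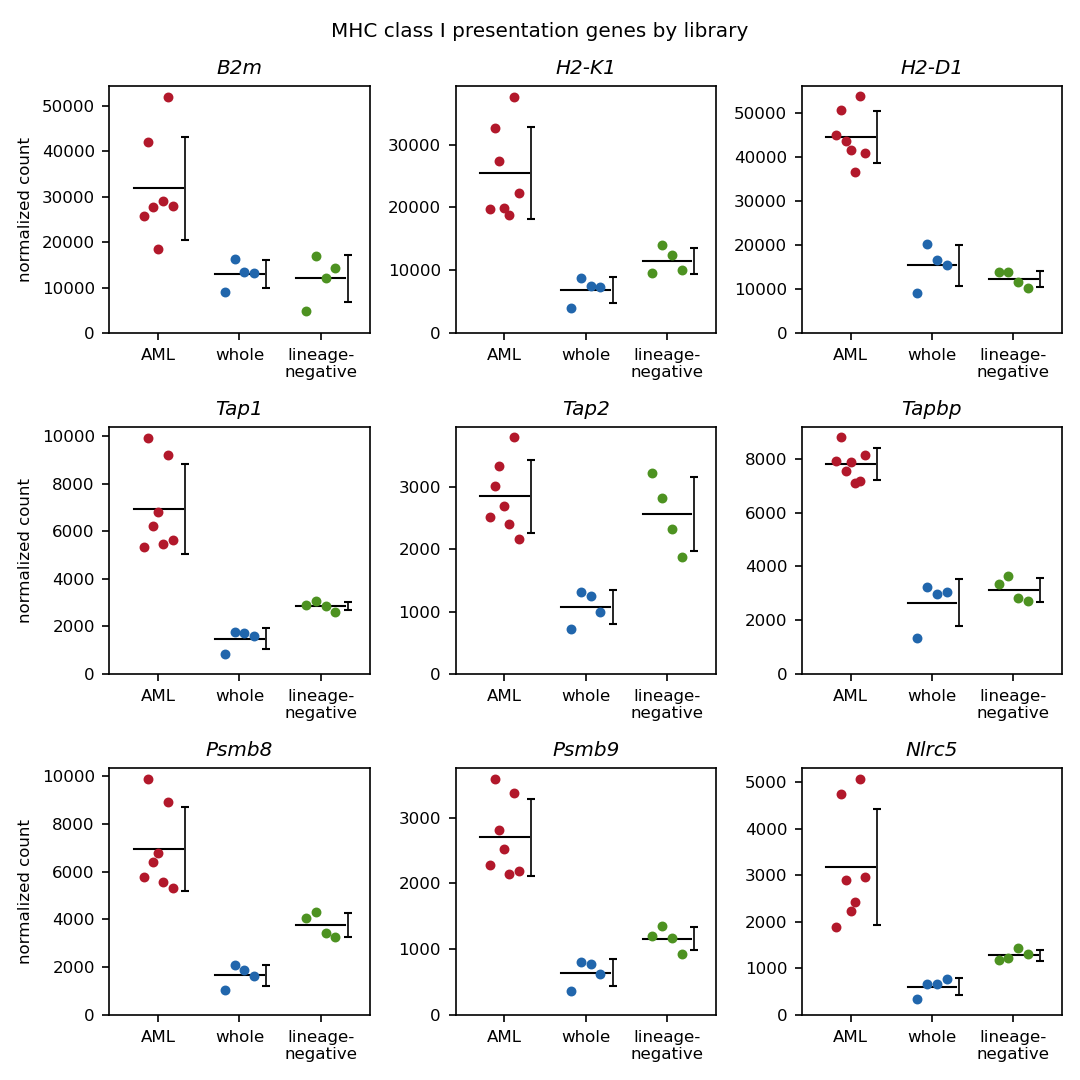
Normalized count (linear axis) of the 9 genes in each library, by group: points are libraries, black lines the group means and bars the SD (7 AML, 4 whole, 4 lineage-negative). Every AML point lies above every whole marrow point for all 9 genes, while 3 of the 4 Tap2 values in lineage-negative marrow lie within the AML range and the other lies below it.

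The 2 chains of the peptide transporter had different patterns. Tap1 ran from 5336 through 6213 to 9937 in AML, was 825, 1775, 1744 and 1585 in whole marrow, and was 2885, 3075, 2855 and 2624 in lineage-negative marrow. The 3 groups did not overlap. Its log2 difference was 2.25 (SE 0.22, limma adjusted p = 3.77e-07) against whole marrow, 1.55 after TMM scaling, and 1.24 (SE 0.22, limma adjusted p = 0.000144) against lineage-negative marrow. Tap2 ran from 2157 through 2686 to 3805 in AML, was 719.8, 1314, 1246 and 1001 in whole marrow, and was 3227, 2829, 2328 and 1872 in lineage-negative marrow. AML was above whole marrow in every library but only 2 of 7 AML libraries lay above all lineage-negative ones. The log2 difference of Tap2 was 1.42 (SE 0.21, limma adjusted p = 1.57e-05) against whole marrow, 0.73 after TMM scaling, and 0.16 (SE 0.21, limma adjusted p = 0.564) against lineage-negative marrow.

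Tapbp encodes tapasin. It ran from 7096 through 7885 to 8809 in AML, the narrowest AML spread of the 9 genes (coefficient of variation 7.57%). Whole marrow gave 1349.9, 3237, 2982 and 3059, and lineage-negative marrow 3360.2, 3657, 2824 and 2709. AML lay above both normal groups, which overlapped, and whole replicate 1 was the lowest library. The log2 difference was 1.63 (SE 0.21, limma adjusted p = 4.96e-06) against whole marrow, 0.93 after TMM scaling and so not called, and 1.32 (SE 0.21, limma adjusted p = 3.39e-05) against lineage-negative marrow.

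Psmb8 and Psmb9 encode catalytic subunits of the immunoproteasome, the form of the proteasome that replaces 3 constitutive catalytic subunits. Psmb8 ran from 5312 through 6408 to 9895 in AML, was 1038, 2093, 1876 and 1623 in whole marrow, and was 4049, 4322, 3449 and 3267 in lineage-negative marrow. The 3 groups did not overlap, yet the step to lineage-negative marrow was small. The log2 difference was 2.08 (SE 0.21, limma adjusted p = 5.64e-07) against whole marrow, 1.38 after TMM scaling, and 0.86 (SE 0.21, limma adjusted p = 0.00275) against lineage-negative marrow, which is under the log2 threshold of 1. Psmb9 ran from 2136 through 2516 to 3590.3 in AML. It was 358, 811, 769 and 621 in whole marrow and 1199, 1354, 1167 and 921 in lineage-negative marrow, again in 3 groups without overlap, although the normal groups overlapped after TMM scaling (764 to 992 and 812 to 1165). Its log2 difference was 2.11 (SE 0.22, limma adjusted p = 5.64e-07) against whole marrow, 1.42 after TMM scaling, and 1.20 (SE 0.22, limma adjusted p = 0.000145) against lineage-negative marrow.

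Nlrc5, the class I transactivator, had the largest difference from whole marrow of the 9 genes. It ran from 1888 through 2897 to 5069 in AML, was 352, 663, 659.5 and 768 in whole marrow, and was 1171, 1221, 1435 and 1307 in lineage-negative marrow. The 3 groups did not overlap, and the AML libraries had the widest spread of the 9 genes (coefficient of variation 39.1%). The log2 difference was 2.35 (SE 0.26, limma adjusted p = 1.09e-06) against whole marrow, 1.65 after TMM scaling, and 1.22 (SE 0.26, limma adjusted p = 0.000638) against lineage-negative marrow.

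Over the 9 genes the median log2 difference was 1.90 against whole marrow, beside 0.67 over all genes, and 1.22 against lineage-negative marrow, beside 0.02 over all genes. After TMM scaling the median against whole marrow was 1.21, beside -0.01, with a range of 0.56 (B2m) to 1.65 (Nlrc5). Groups did not overlap for 9 of 9 genes against whole marrow (8 of 9 after TMM scaling), where 35.8% of all genes were higher without overlap (10.9% after TMM scaling). Against lineage-negative marrow the count was 8 of 9, beside 17.0% of all genes. Leaving out AML replicates 5 and 6, which had the fewest genes at 0 among AML libraries, left 9 and 7 genes called.

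**Figure D2:**
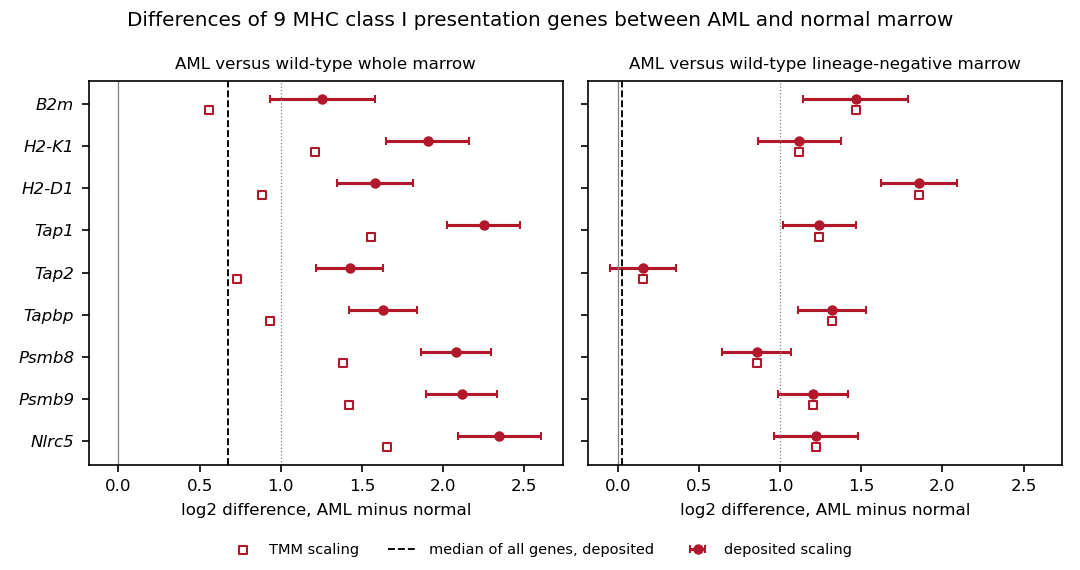
Log2 difference of each gene between AML and the normal groups: filled symbols are the deposited scaling with bars of 1 SE, open squares the TMM scaling, dashed lines the median of all genes and the dotted line the threshold of 1. The TMM values against whole marrow lie lower than the deposited ones for each gene, and the 2 scalings nearly coincide against lineage-negative marrow.

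Per kilobase of exon the order was the same from the fourth place down in all groups: Psmb8, Tapbp, Tap1, Psmb9, Tap2 and Nlrc5. In AML, B2m stood at 36994 ± 13104 normalized counts per kilobase (SD, n = 7), H2-D1 at 21243 ± 2831 and H2-K1 at 15413 ± 4429.5. Nlrc5 was lowest at 391 ± 153. H2-D1 was above H2-K1 in AML and in whole marrow (7335 ± 2210.4 and 4155 ± 1251, SD, n = 4), but in lineage-negative marrow H2-K1 stood at 6952 ± 1278 and H2-D1 at 5876 ± 866, closer than their spread. Neighbours whose ranges overlapped in AML included Tapbp at 2692 ± 204, Tap1 at 2352 ± 638 and Psmb9 at 1996 ± 434.

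The normal groups were compared with each other to place the 9 genes in marrow without leukaemia. In lineage-negative against whole marrow 4 of 9 were called higher, beside 33.1% of all genes, and 0 were called lower, beside 17.2%. They were Tap1 with a log2 difference of 1.01 (SE 0.25, limma adjusted p = 0.00182), Tap2 with 1.27 (SE 0.23, limma adjusted p = 9.88e-05), Psmb8 with 1.22 (SE 0.24, limma adjusted p = 0.000212) and Nlrc5 with 1.12 (SE 0.29, limma adjusted p = 0.00229). B2m had -0.21, H2-D1 -0.27, Tapbp 0.31, H2-K1 0.79 and Psmb9 0.91, none of them called. After TMM scaling 0 of 9 were called, beside 11.1% of all genes higher and 24.7% lower, and without whole replicate 1 the count with the deposited scaling was 2. With TMM scaling, 5 of 9 had a limma adjusted p under 0.05 with a log2 difference under 1 in size, and their directions were mixed. H2-D1 (-0.97, groups without overlap), B2m (-0.91) and Tapbp (-0.39) were lower in lineage-negative marrow, and Tap2 (0.57) and Psmb8 (0.53) higher. The median of the 9 genes was 0.91, beside 0.59 over all genes, and 0.22 after TMM scaling, beside -0.09.

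Ratios of 2 genes within a library do not depend on how that library was scaled. In the normal immunoproteasome exchange, Psmb8 takes the place of Psmb5, Psmb9 that of Psmb6, and Psmb10 that of Psmb7. The log2 ratio of Psmb8 to Psmb5 was 2.18, 3.39, 2.99, 2.65, 2.22, 4.08 and 2.19 in AML replicates 1 to 7. It was 2.06, 1.37, 1.37 and 1.14 in whole marrow and 1.67, 1.27, 1.31 and 1.79 in lineage-negative marrow. Every AML library was above every normal library, with the smallest gap to whole replicate 1. The mean was 1.33 higher than in whole marrow (exact permutation p = 0.00606, adjusted over 18 ratio tests 0.0121) and 1.31 higher than in lineage-negative marrow (exact permutation p = 0.00606, adjusted 0.0121), two-sided, while the normal groups differed by 0.02 (exact permutation p = 0.943, adjusted 0.971).

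Both other exchange pairs moved the same way. Psmb9 to Psmb6 had a linear ratio of 1.12 ± 0.201 in AML (SD, n = 7), and of 0.550 ± 0.0744 for whole and 0.465 ± 0.0953 for lineage-negative marrow (SD, n = 4 each). The log2 ratio was 1.02 higher in AML than in whole marrow and 1.27 higher than in lineage-negative marrow, each with the smallest possible exact permutation p of 0.00303 (adjusted 0.00779) and all 7 AML libraries above the normal ones. Psmb10 to Psmb7 had a linear ratio of 1.21 ± 0.219 (SD, n = 7), 0.514 ± 0.0282 (SD, n = 4) and 0.645 ± 0.166 (SD, n = 4), with log2 differences of 1.21 and 0.92 and the same exact permutation p of 0.00303 (adjusted 0.00779). The constitutive subunits themselves did not pass the threshold there: against lineage-negative marrow Psmb5 had a log2 difference of -0.45, Psmb6 of -0.07 and Psmb7 of -0.16, none called.

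Tap1 to Tap2 had a linear ratio of 2.45 ± 0.451 in AML (SD, n = 7), and of 1.37 ± 0.180 for whole and 1.15 ± 0.215 for lineage-negative marrow (SD, n = 4 each). The log2 ratio was 0.83 and 1.08 higher in AML, each with an exact permutation p of 0.00303 (adjusted 0.00779), so the 2 chains of the transporter changed unequally. H2-K1 to B2m was higher in AML than in whole marrow by 0.65 (exact permutation p = 0.00303, adjusted 0.00779). In whole marrow its log2 value was -1.19, -0.90, -0.83 and -0.86, and in lineage-negative marrow 0.95, -0.26, 0.02 and -0.51. The normal groups differed by 1.00 without overlap (exact permutation p = 0.0286, the smallest possible with 4 against 4, adjusted 0.0514), and lineage-negative replicate 1, the library with the low B2m, was highest. The difference between AML and lineage-negative marrow was -0.35 (exact permutation p = 0.230, adjusted 0.296). H2-D1 to B2m did not pass in any comparison with all libraries, with log2 differences of 0.33 (exact permutation p = 0.133, adjusted 0.214), 0.39 (exact permutation p = 0.330, adjusted 0.372) and, between the normal groups, -0.06 (exact permutation p = 0.971, adjusted 0.971). Without lineage-negative replicate 1 it passed, at 0.83 between AML and lineage-negative marrow and -0.51 between the normal groups.

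**Figure D3:**
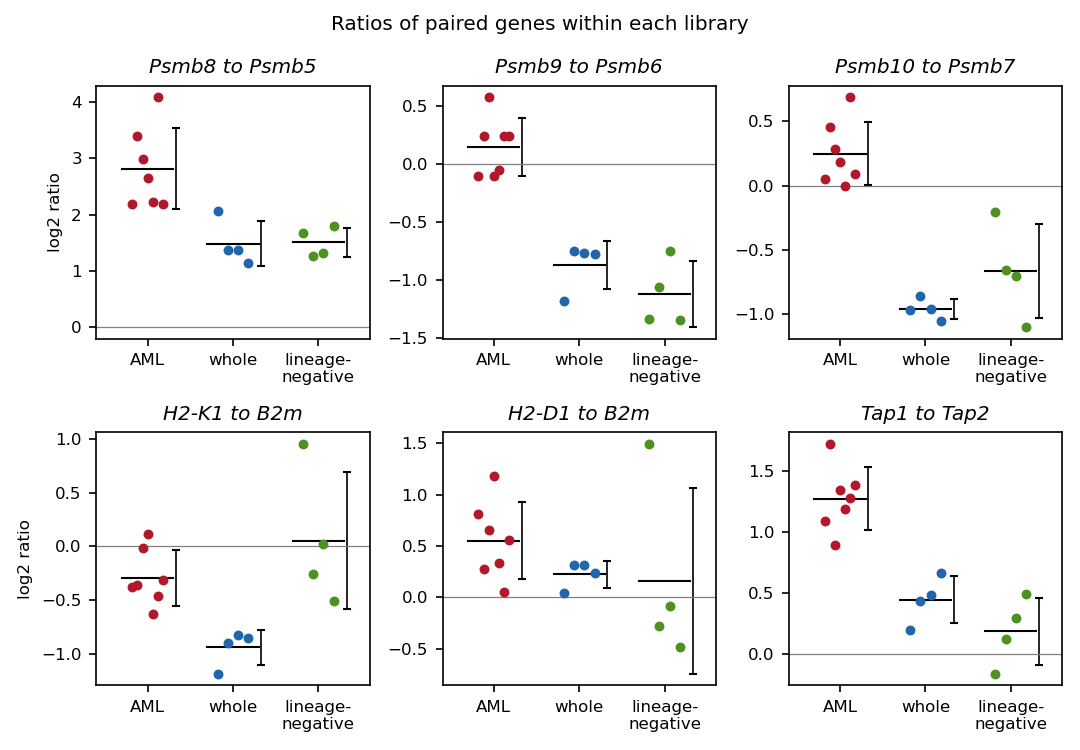
Log2 ratio of 2 genes within each library for 6 pairs, by group: points are libraries, black lines the means, bars the SD, and the grey line marks equal normalized counts. AML lies above both normal groups for the 3 proteasome exchanges and for Tap1 to Tap2, and lineage-negative replicate 1 stands high in both ratios to B2m.

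Within AML the genes did not vary alike. The highest library had 2.82 times the lowest for B2m, 2.68 times for Nlrc5 and 2.01 times for H2-K1, but 1.24 times for Tapbp. Replicates 2 and 6 were the highest pair for 7 of the 9 genes, the exceptions being Tap2 (replicates 6 and 3) and Tapbp (replicates 2 and 7). Replicate 6 also had the fewest genes at 0 among AML libraries (23.6%, against 29.1% to 41.4%). Its olfactory and vomeronasal mean was the highest (3.34, against 0.404 to 1.15) and its estimated depth the lowest (20.3 M reads). The part of these in the pattern was not tested. Irf1, which binds the interferon response element, was 4683 and 6855 in replicates 2 and 6 and 2273 to 3288 in the others. Stat2, a partner in interferon signalling, had another order, lowest in replicate 6 (1323) and highest in replicate 2 (3505). Ifng, the gene of interferon gamma itself, was 3.82, 27, 46.6, 7.60, 9.44, 128 and 2.16 in replicates 1 to 7. It was highest in replicate 6 and next in replicate 3. In replicates 1 and 7 it lay at or under the value of 3 reads (3.82 and 3.24), so these low values cannot be ordered. The summed level of 12 T and NK cell markers was 4388, 5276 and 5417 in replicates 2, 3 and 6 and 1672 to 2324 in the others, and its part in this pattern was not tested. Ciita, the class II transactivator, was highest in replicate 3 (9598, against 1505 to 3124 in the others), a different order from Nlrc5. The summed level of 10 B cell markers was also highest in replicate 3 (9205, against 739 to 5061 in the others), and its part was not tested.

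Over the 7 AML libraries, 4 pairs of genes were compared on log2 values with exact permutation tests. Tap1 with Psmb9, whose promoters overlap and which may share reads if strand was not used in counting, had r = 0.951 (exact permutation p = 0.00377, adjusted over 4 pairs 0.00503) and rho = 0.857 (p = 0.0238, adjusted 0.0317). Psmb8 with Psmb9 had r = 0.965 (exact permutation p = 0.00198, adjusted 0.00503) and rho = 0.929 (p = 0.00675, adjusted 0.0270). Nlrc5 with H2-K1 had r = 0.935 (exact permutation p = 0.00317, adjusted 0.00503) and rho = 0.857 (p = 0.0238, adjusted 0.0317). These 3 pairs rose and fell together across the libraries. Tap1 with Tap2 did not pass, with r = 0.713 (exact permutation p = 0.0786, adjusted 0.0786) and rho = 0.679 (p = 0.110, adjusted 0.110). Replicates 2 and 6 were the farthest from the median of the first gene in each pair. Without them r over the remaining 5 libraries was 0.720, 0.818, 0.687 and 0.542 in the order given, so the relations rest in part on those 2 libraries.

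**Figure D4:**
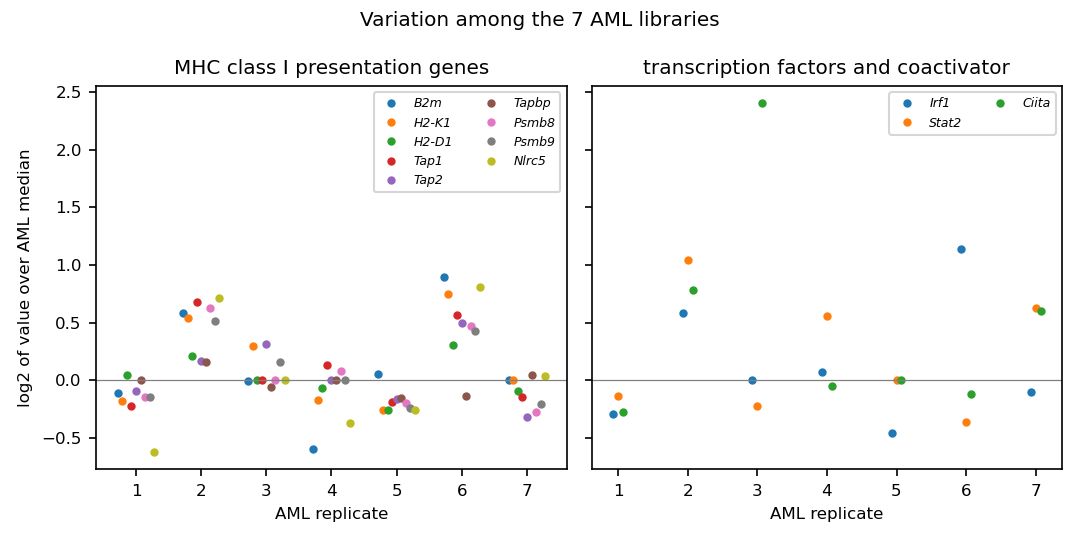
Log2 of each value over the AML median, by AML replicate, for the 9 genes and for Irf1, Stat2 and Ciita; symbols of 1 replicate are set side by side so that they can be told apart. Replicates 2 and 6 are raised for B2m, H2-K1, Tap1, Psmb8, Psmb9 and Nlrc5 and for Irf1, Stat2 is raised in replicate 2 and lowest in replicate 6, Tapbp is nearly flat, and Ciita peaks in replicate 3.

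Other genes of the pathway were taken from lists chosen with earlier results of these data known. Of 10 genes of peptide loading and trimming, 7 were called higher in AML than in whole marrow and 0 lower, beside 27.3% and 11.3% of all genes, but 1 after TMM scaling, beside 4.74%. That one was Tapbpl, the tapasin-like editor, with a log2 difference of 1.77 (1.08 after TMM scaling) and a mean of 954 ± 219.7 over 7 AML libraries, against 289 ± 103 over 4 whole marrow libraries (SD). Against lineage-negative marrow 0 of 10 were called higher and 1 lower, beside 17.7% and 12.5%. Calr, the chaperone calreticulin of the loading complex, was 30310.4, 37841, 29692 and 28618 there and 8052 to 17608 in AML, with a log2 difference of -1.49 (limma adjusted p = 2.51e-05). The list's median was 1.14 against whole marrow (0.44 after TMM scaling) and -0.30 against lineage-negative marrow.

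Of 7 further immunoproteasome and activator genes listed, 6 passed the filter on low values. Of these, 4 were called higher than in whole marrow (Psmb10, Psme1, Psme2 and Pomp), beside 27.3% of all genes. After TMM scaling 1 was called higher, beside 4.74%. It was Psmb10, the third inducible subunit, with a log2 difference of 1.99 (1.30 after TMM scaling). Psme1 and Psme2, the interferon-inducible proteasome activator, had 1.60 and 1.47 against whole marrow (0.91 and 0.78 after TMM scaling) and 0.43 and 0.38 against lineage-negative marrow. Against lineage-negative marrow 0 of 6 were called higher and 1 lower, beside 17.7% and 12.5% of all genes. The lower one was Psme3, of a related activator, with mean levels of 1536 normalized counts in AML and 3072 in lineage-negative marrow, a call at the very edge of the log2 threshold that was not made after TMM scaling. Its difference from whole marrow was -0.78 (-1.47 and called lower after TMM scaling, as were 16% of all genes). Of 3 constitutive catalytic subunits, 1 was called higher than in whole marrow, beside 27.3% of all genes. It was Psmb6 (1.10, 0.40 after TMM scaling). Of 11 other subunits of the proteasome core, 5 were called higher than in whole marrow, such as Psma7 (1.49) and Psmb4 (1.27), beside 27.3% of all genes. After TMM scaling 0 of these subunits were called (0.79 for Psma7 and 0.57 for Psmb4), beside 4.74% of all genes. Against lineage-negative marrow 0 of them were called higher, beside 17.7% of all genes. The median of these 11 subunits against lineage-negative marrow was 0.05, beside 1.22 for the 9 presentation genes.

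Of 23 other class I heavy chains listed, 22 were in the table and 14 passed the filter, and of those 10 were called higher than in whole marrow (8 after TMM scaling), beside 27.3% and 4.74% of all genes, and 11 higher than in lineage-negative marrow with either scaling, beside 17.7%. Their median was 1.96 against whole marrow (1.28 after TMM scaling) and 1.76 against lineage-negative marrow. Fcgrt, the neonatal Fc receptor, was 471 to 2268 in AML, 99.6 to 287 in whole and 97.8 to 197 in lineage-negative marrow, with log2 differences of 2.84 (2.15 after TMM scaling) and 3.31. H2-M3, which presents formylated peptides, had 2.38 (1.68 after TMM scaling) and 2.01, with AML at 785 to 1309 and no normal library above 256. H2-Q7, a Qa-2 gene, had 2.18 (1.48 after TMM scaling) and 1.26, and its AML libraries 2 and 6 were again highest (5988 and 8206). H2-Q10, whose secreted product is known from liver, had another pattern. Whole marrow had 459.6, 761.6, 854 and 724, inside the AML range of 184 to 994, and the lineage-negative libraries had 24.4 to 59.3. Its log2 difference was -0.82 against whole marrow (limma adjusted p = 0.0571, not called), -1.52 and called lower after TMM scaling, and 3.41 against lineage-negative marrow.

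Of 15 regulators of class I transcription, 8 were called higher than in whole marrow (1 after TMM scaling, Ciita), beside 27.3% and 4.74% of all genes. Against lineage-negative marrow 5 were called higher with either scaling, beside 17.7%: Irf1, Irf2, Nfkb2, Relb and Ciita. Irf1 had log2 differences of 1.48 (0.79 after TMM scaling) and 1.72. Nfkb2 and Relb, of the alternative NF-kappa B pathway, had 1.63 and 1.66 against whole marrow (0.93 and 0.96 after TMM scaling) and 1.81 and 2.99 against lineage-negative marrow. Ciita was 1505 to 9598 in AML, 277 to 486 in whole and 9.69 to 71.8 in lineage-negative marrow, and these groups did not overlap. Rfx5, a subunit of the factor that binds the X box, had 1.08 against whole marrow (0.39 after TMM scaling) and -0.56 against lineage-negative marrow, not called. Of 10 genes of interferon gamma signalling, 7 were called higher than in whole marrow (2 after TMM scaling, Ifngr1 and Stat2) and 5 higher than in lineage-negative marrow with either scaling, beside the same shares of all genes, among them Ifngr2, Stat2, Irf9 and Socs1. Stat2 had 2.02 (1.33 after TMM scaling) and 2.06. The list medians against lineage-negative marrow were 0.14 for the regulators and 1.48 for interferon gamma signalling.

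The list of regulators of class I surface level held 11 names, older symbols included, of which 7 were in the table and passed the filter. Of these 1 was called higher and 1 lower than in whole marrow, beside 27.3% and 11.3% of all genes. Against lineage-negative marrow 2 were called higher and 1 lower, beside 17.7% and 12.5% of all genes, so the counts are near those shares. Marchf8, a ubiquitin ligase of membrane proteins, was called lower in AML than in both normal groups, at 264 to 677 in AML, 1791, 3561, 3686 and 4431 in whole and 879.5, 1311, 1116 and 1153 in lineage-negative marrow. Its log2 difference was -2.87 against whole marrow (-3.57 after TMM scaling) and -1.34 against lineage-negative marrow. The related Marchf1, which acts on class II molecules, was called higher than in both, with 1.59 (0.90 after TMM scaling, then not called) and 4.39.

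Among the 5 genes outside these lists whose pattern over the 15 samples was most like the mean of the 9 genes were Sharpin, Trim21, Lactb and Anxa4. Their Pearson r with that mean was 0.982, 0.981, 0.977 and 0.977, given as a description over samples that share the deposited scaling. For the 9 genes themselves it ran from 0.821 (B2m) to 0.994 (Psmb9). Trim21, a cytosolic antibody receptor and ubiquitin ligase, was 846 ± 106 in AML (SD, n = 7), 355 ± 64.4 in whole and 509.6 ± 42.6 in lineage-negative marrow (SD, n = 4). Sharpin, a subunit of the linear ubiquitin ligase, was 1283 ± 175, 633 ± 110.1 and 801 ± 69.5 in the same order.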

How the data were processed

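Total RNA was extracted with TRIzol and sequenced after TruSeq Stranded Total RNA preparation, per the labels' protocols. The table deposited by the authors holds a signal per gene, estimated reads over a DESeq2 size factor of the poscounts type, per the table's name. STAR, Partek, DESeq2 and the build mm10 are named, with no versions for the tools, in the submitters' processing notes. The strand used for counting is not given in the sources used here, so antisense genes may share reads. Of 38315 identifiers 38066 occur in GENCODE vM21 but 861 share its start, so positions and lengths come from GENCODE.

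Whole reads were not recovered (78.2% to 84.4% of small values fell within 0.02 of a multiple of the library's step), so no count test was run. Depth was estimated from that step, and floors of 3 reads cover counting error only. Genes with at least 10 normalized counts in at least 4 of 15 samples (18941, among them all 9 members) entered one limma fit (limma 3.58.1, R 4.3.3) of 3 group means on log2(value + 1), with a mean-variance trend and two-sided tests, so fold changes are on that scale. P-values were adjusted by Benjamini-Hochberg, and calls needed 0.05 and a log2 difference of 1 in size. Simulated data were used to test these steps. Ratio tests permuted the samples exactly (330 splits, or 70 between the normal groups).

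The members and lists were chosen with earlier results of these data known. Named list genes were those called in a comparison with AML with a mean of at least 100, at most 4 a list by size of difference, and 9 genes set by name. The 5 genes of similar pattern were those outside the lists with the highest correlation. Some results under these rules are not reported here. Alternatives were other pseudocounts, filters, scalings, variance models, a replicate block and leaving out each library.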

Additional observations from a re-analysis of the deposited data

Results flagged for a closer look

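Each gene's libraries were examined for a single value far from the rest in 27 groups of 4 or 7 samples, and 1 was found, where chance gives about 1 in 20 groups. Tapbp in whole marrow replicate 1 was 1349.87 normalized counts, against 2982.14 in the nearest library of the group, a gap of 0.865 of the group's range. The low value was not particular to Tapbp, since this library was the lowest of the whole marrow group for each of the 9 genes. Its total of normalized counts was 10221001, against 17865234 to 19285222 in the other whole marrow libraries. TMM scaling multiplied its values by 2.14 and those of the others by 1.22 to 1.26. After TMM scaling the 4 whole marrow libraries were at 2883, 3959, 3762 and 3825 for Tapbp. Without this library Tapbp was 1.33 higher (log2) in AML than in whole marrow, and it was still called.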

How the results depend on the processing

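The direction of each gene's difference between AML and either normal group held in every alternative run. Of the gene differences recomputed, 671 kept direction and call, 24 lost the call, 3 gained it and 4 turned sign. Quantile scaling, like TMM scaling, called 5 of 9 genes higher in AML than in whole marrow. TMM scaling, quantile scaling and array weights each called 0 genes higher in lineage-negative than in whole marrow, and leaving out 1 library gave 2 to 5, the 2 without whole replicate 1. Between the normal groups Tapbp turned to -0.39 with TMM scaling, -0.27 with quantile scaling and -0.040 with array weights, and B2m ran from -0.42 to 0.17 as single libraries were left out, with 0.17 without lineage-negative replicate 1. The cause was not tested.

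Leaving out 1 library moved the ratio of Psmb8 to Psmb5 between 1.12 and 1.52 (log2) against whole marrow and between 1.10 and 1.41 against lineage-negative marrow. The adjusted exact permutation p rose to 0.05, losing the call, without whole replicate 2, 3 or 4 and without lineage-negative replicate 2 or 3. These designs have fewer splits, but so do those without whole replicate 1 or lineage-negative replicate 1 or 4, where the call was kept. Between the normal groups the ranges were -0.090 to 0.22 for Psmb8 to Psmb5 (sign changed in 5 of 15 settings), 0.70 to 1.18 for H2-K1 to B2m, -0.51 to 0.15 for H2-D1 to B2m (sign changed in 3) and 0.14 to 0.44 for Psmb10 to Psmb7. H2-D1 to B2m between AML and lineage-negative marrow ran from 0.17 to 0.83. Calls gained were those of both H2-D1 to B2m differences from lineage-negative marrow without its replicate 1, H2-K1 to B2m between the normal groups without its replicate 1 or 4, and Psmb10 to Psmb7 between them without replicate 4. The correlation of Tap1 with Tap2 ran from 0.56 to 0.85 and passed without AML replicate 2 or 3.

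Over all genes, TMM scaling gave 897 higher and 3037 lower calls for AML against whole marrow (22.8% higher, against 70.8% as deposited) and 2098 and 4671 for the normal groups (31% against 65.8%). Without the filter 11289 and 12497 genes were called lower in these comparisons, and with a mean of at least 50 it was 460 and 1244. Array weights gave 3774 higher for AML against whole marrow, and leaving out whole replicate 1 gave 3165.

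Replicate numbers did not pair the samples, since deviations of same-numbered libraries correlated at -0.288 to 0.171. With replicate as a block 9, 7 and 4 genes were called higher, as without it. Leaving out AML replicates 5 and 6 was chosen after seeing the data. Depth limits low genes of whole marrow most, and the 9 genes lie above that limit.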
